A study of Drosophila melanogaster with 14 samples.

Results

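The binding of Sox21a, a Sox-family transcription factor, was profiled in the intestinal stem cells (ISCs) and enteroblasts (EBs) of the adult Drosophila midgut. The series held 14 targeted DamID samples, of which 6 belong to this experiment: 3 samples with Dam-Sox21a and 3 samples with Dam alone, its own control, both expressed under the escargot (esg) driver. The other 8 samples held Dam-RNA polymerase II (Pol II) or Dam alone in ISC/EBs and in enterocytes (ECs), with 2 samples each. All samples were DNA from dissected midguts of adults, and age, sex and strain were not given. The esg driver is active in both ISCs and EBs, so the profile pools these cell types. The deposited values were 1 log2 ratio of Dam-Sox21a to Dam for each GATC fragment, already averaged over samples, and a list of peaks at a false-discovery rate (FDR) below 0.01. There was therefore no value per sample, no spread between samples and no test: every comparison is a description of 1 averaged track.

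In targeted DamID, a bacterial adenine methylase (Dam) is fused to a protein of interest and expressed at a low level in chosen cells, and it methylates GATC sites close to where the fusion protein sits. Dam alone methylates accessible DNA, and the ratio to Dam alone is used to take that background out. Sox proteins bind DNA through an HMG box, and Sox21a is known as a regulator of proliferation and differentiation in the midgut. ISCs divide to renew themselves and to make EBs, which differentiate into the absorptive ECs, while enteroendocrine (EE) cells secrete peptide hormones. Binding at a gene does not show that the gene is expressed or that Sox21a changes its expression.

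The track held 383654 fragments with a median length of 197 bp. The median log2 ratio was 0, the mean was 0.21 ± 0.656 (SD over fragments), and the values ran between −2.39 and 3.88. Of all fragments, 10.3% were listed at exactly 0. Neighboring fragments were alike (r = 0.914, a description), so nearby values do not count as separate measurements.

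The peak list held 2769 intervals that covered 8.15 Mb, or 6.09% of the sequence of the 6 arms without Y. Peaks had a median length of 2418 bp and a median score of 2.21 on the log2 scale, with quartiles of 1.93 and 2.50. Fragments inside peaks had a median log2 ratio of 2.0 (SD 0.418), and fragments outside had a median of 0 (SD 0.457). High values were not confined to peaks. Of the fragments at 2 or above, 12404 lay in peaks and 1617 outside, while of those at 1 or above, 24610 lay in peaks and 21876 outside.

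The signal was centred on short stretches of DNA. Sox21a values were taken around the highest fragment of each peak, which by its choice has the peak's top value. Beside the centre, their median log2 ratio was 2.37 in the 250-bp window on the lower-coordinate side and 2.33 on the upper. On the upper-coordinate side it was 1.57 at 875 bp, 0.465 at 4625 bp and 0.218 at 9625 bp. In the same 2 windows beside the centre, Pol II in ISC/EBs had medians of 3.03 on the lower side and 2.78 on the upper. Pol II in ECs had 1.68 and 1.25.

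**Figure D1:**
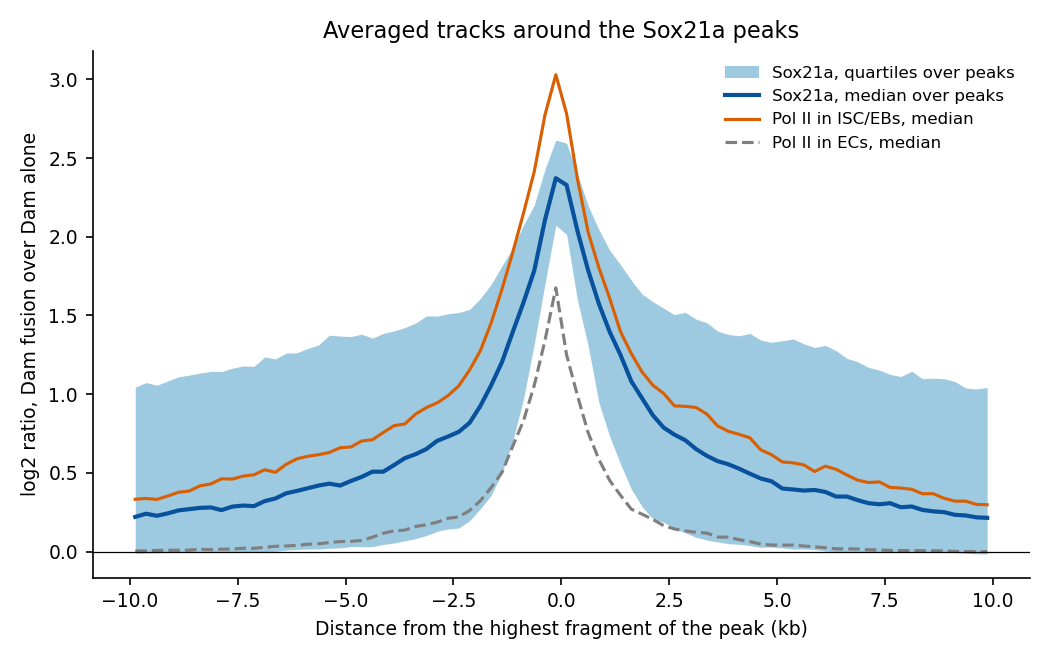
Median log2 ratio over Dam alone (y axis) by distance from the highest fragment of each peak in kb (x axis), for 2769 peaks. The blue line and band are the median and quartiles of Sox21a, the orange line is Pol II in ISC/EBs and the grey dashed line is Pol II in ECs. The Sox21a median is 2.37 and 2.33 on the lower and upper side of the centre and 0.218 at 9625 bp.

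Peaks lay mostly over genes. Of the 2769 peaks, 1502 (54.2%) overlapped a single gene, 838 (30.3%) overlapped 2 genes, 270 (9.75%) overlapped 3 or more, and 159 (5.74%) overlapped none. Genes covered 85.0% of the length of peaks and 69.4% of the length of the whole track. Peaks wholly inside a gene numbered 1501, and 338 peaks held a whole gene. The highest fragment of a peak lay a median of 1368 bp from the nearest gene end, against 2224 bp for all fragments. It was within 1 kb of a gene end in 42.5% of peaks, against 33.2% of all fragments. The gene table used here (RefSeq, Release 6) gave no strand, so start and end of a gene were not told apart.

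Of 17791 genes with at least 1 fragment, 3093 had a peak over the gene body, which is 17.4% of genes and the background for every list below. The study listed more Sox21a target genes from peaks over the gene body at the same FDR. The source of this difference was not tested. A peak lay within 500 bp of either end in 2974 genes, or 16.7%. A single peak was found in 2506 genes, 2 peaks in 384 and 3 or more in 203 (1.14%). The gene mean, the log2 ratio averaged over the gene body and weighted by fragment length, had a median of 1.05 in genes with a peak and 0.02 in genes without. Over all genes the median was 0.10, with quartiles of −0.06 and 0.59. A gene mean of at least 1 was found in 2515 genes (14.1%), of which 1628 had a peak and 887 had none. A gene mean under 0 was found in 6315 genes (35.5%), of which 62 had a peak.

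Long genes were more often overlapped. A peak was found over 45.3% of the 1310 genes with 50 or more fragments, 30.2% of those with 20 to 49, 17.8% of those with 10 to 19, 11.9% of those with 5 to 9 and 8.65% of the 5366 genes with 1 to 4. The median gene mean moved far less across these classes, between 0.07 and 0.14. The share of a gene list with a peak is therefore given beside the share expected from all genes of the same sizes. The top class is open at 50 or more fragments, so the longest genes are matched only loosely, and no expected share can exceed 45.3%. The size classes do not match genes by Pol II, which was higher in genes with a peak, as given further below. By fragment length, between 6.02% and 8.51% of fragments lay in peaks in the 5 shorter classes, and 1.09% in the longest class.

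Among kinds of gene, 2656 of 13934 protein-coding genes (19.1%) had a peak, against 19.3% for all genes of their sizes. Antisense RNA genes had one in 102 of 503 cases (20.3%, against 12.5% for their sizes). An antisense gene and its partner share the same DNA, which DamID cannot separate. Pseudogenes had one in 10 of 308 cases (3.25%, against 10.7%). None of 98 ribosomal RNA genes had a peak, and their repeated sequence can limit how reads are placed. Genes for tRNAs and snoRNAs had high median gene means, 0.52 and 0.54, while 8.97% and 12.6% of them had a peak. Most are a single fragment long.

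The large chromosome arms carried Sox21a peaks at similar density. There were 472 peaks on 2L, 537 on 2R, 586 on 3L, 614 on 3R and 538 on X, or between 19.1 and 22.9 peaks per Mb. Between 5.98% (3R) and 6.19% (2R) of their sequence lay in peaks. Chromosome 4, a small and largely heterochromatic chromosome, had 22 peaks, 16.3 per Mb, and 4.46% of its sequence in peaks. Its fragments had a higher mean log2 ratio, 0.40, against 0.22 to 0.25 on the large arms, and 24 of its 114 genes (21.1%) had a peak. The Y chromosome had no peak, and 93.1% of its fragments were listed at exactly 0.

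Within arms the density differed widely. Of 134 bins of 1 Mb, 7 held no peak, and the median bin had 6.20% of its sequence in peaks. The first Mb of 3L stood highest, with 48 peaks over 17.0% of its sequence. It holds a peak of 16452 bp that overlaps no gene (3L:80994-97446), 4 peaks in Ptpmeg and 4 in Hipk, and the peak over emc, an inhibitor of proneural factors. The next were a bin of 3R (44 peaks, 14.2%) and a bin of X (46 peaks, 12.8%). Bins nearest the centromeres were sparse. The first 4 Mb of 3R held no peak, the first 4 bins of 2R had at most 0.255% of their sequence in peaks, and the last 6 bins of 3L at most 0.366%. Many fragments there were listed at exactly 0: 28.9% to 42.7% per bin on 3R, 27.3% to 47.8% on 2R and 14.4% to 44.7% on 3L. Over the whole track the share was 10.3%. How far fragments without signal account for the sparse peaks was not tested. The longest stretch without a peak was 2151 kb of 3L (3L:25116102-27267330), which overlaps 19 genes.

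**Figure D2:**
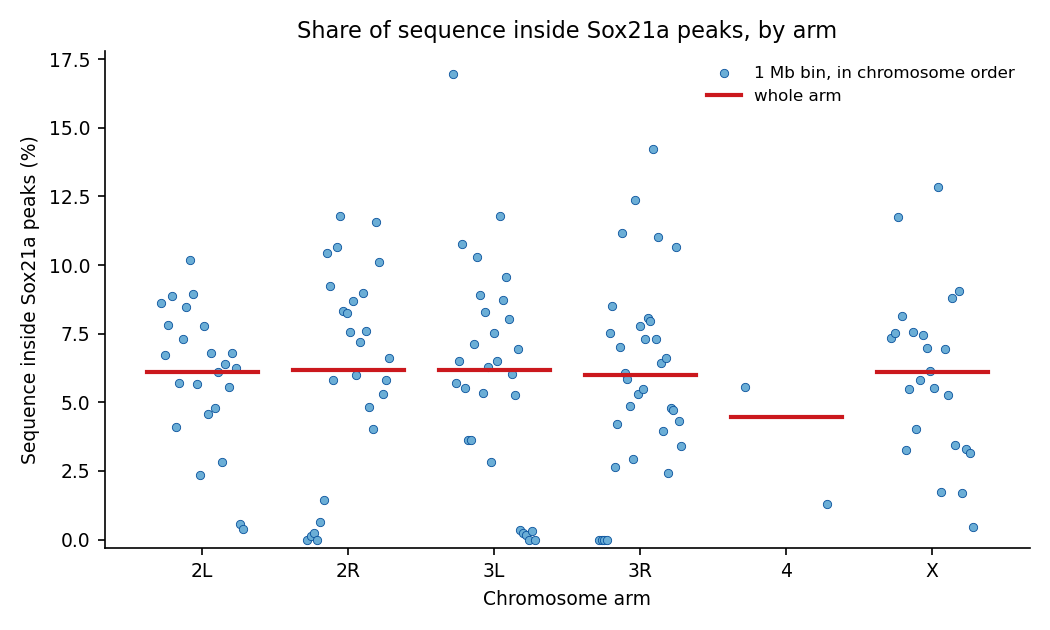
Percent of sequence inside Sox21a peaks (y axis) by chromosome arm (x axis). Each point is a bin of 1 Mb in order along its arm, and the red line is the whole arm. The whole-arm values lie between 5.98% and 6.19% on the 5 large arms and at 4.46% on chromosome 4, while single bins run between 0 and 17.0%.

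Long peak-free stretches also occurred outside the bins nearest the centromeres. On 2L, a stretch of 672 kb without a peak (2L:17472001-18143774) overlaps 76 genes, among them CadN and CadN2, which encode neuronal cadherins. Genes at the edges of such a stretch can reach beyond it and have a peak there. On 3R, 495 kb without a peak (3R:5857260-6352150) overlaps 68 genes. Among them are many genes of the Osiris (Osi) cluster and the odorant-binding protein genes Obp83a and Obp83b. A further 373 kb of 3R (3R:16607154-16980241) held the Hox genes Ubx, abd-A and Abd-B with no peak. The median gap between neighboring peaks on the large arms was 10958 to 13562 bp.

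The highest-scoring peak lay in Eip74EF, an ecdysone-induced ETS-domain factor, with a score of 3.58 (3L:17603585-17610218). It was followed by peaks in CG11050 (3.46) and over PGRP-LA and PGRP-LC (3.41). The peak over PGRP-LC covers a receptor for bacterial peptidoglycan that starts the IMD immune pathway. A peak in bun, a TSC22-family gene, scored 3.39, and one in drk, the Grb2-like adaptor of receptor tyrosine kinases, scored 3.26. Peaks over Arms (3.24), Kr-h1 (3.19), rudhira (3.19) and Pat1 (3.16) also stood among the top 10, with 1 peak that overlaps no gene (3.21, 3L:11240551-11243484). The longest peaks lay in cic, which encodes the repressor capicua (20621 bp), and at one end of shg, which encodes E-cadherin (20056 bp). The shg peak covered 7.29% of that gene and lay mostly outside it. The cic peak includes 15 fragments listed at 0. Peaks over sima (14612 bp), elB (14211 bp), shn (13729 bp) and Hnf4 (12999 bp) were among the longest as well. The lowest-scoring peak, over SNF4Agamma, stood apart at 0.53. It spans 28 fragments of which 22 are listed at exactly 0, and the next lowest score was 1.36.

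Several genes carried many peaks. Eip75B, an ecdysone-induced nuclear receptor gene, had 11, bun, SNF4Agamma and heca had 9 each, and NFAT had 8. All of these are long genes of 135 to 294 fragments. Among genes with fewer than 50 fragments, puc had 4 peaks, and PGRP-LC, Chd64, Rim2 and Myd88 had 3 each.

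The highest gene mean among genes of 5 or more fragments was 3.17, at asRNA:CR44724, which lies within Arms. Of the 10 highest, 6 were antisense or long noncoding RNA genes, with means of 2.46 to 3.17. The 4 protein-coding genes were Thor (2.75), CG17486 (2.67), CG43389 (2.61) and Cys (2.48). Thor encodes the translation inhibitor 4E-BP, and Cys a cysteine protease inhibitor. The lowest gene means were at asRNA:CR44049 (−0.88), CG32271 (−0.80), Lrpprc2 (−0.79), CG8677 (−0.74) and Rsph1 (−0.73). CG8677 had a low mean and yet 1 peak, of score 2.06.

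The transcription factor genes that the study singled out as specific to ISC/EBs were chosen on the Pol II samples of the same series. Of the 11, 8 had a Sox21a peak, against 22.9% of all genes of the same sizes, and the median gene mean was 1.0. Sox21a itself had the highest gene mean, 2.34. A single peak of 6542 bp (score 2.65, 3L:14102757-14109299) covered the whole gene (3L:14103481-14108118), and all of its 13 fragments were in the peak. They ran between 1.81 and 2.78, with a median of 2.48. The Dam-Sox21a transgene carries Sox21a sequence of its own, which can add reads over the gene in the fusion samples alone, and its part in this value was not tested. Fragments of the same peak that lie beyond the gene had values of 1.60 on one side, and 1.80 and 2.26 on the other.

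The 11 fragments of esg, which encodes a Snail-family repressor that keeps progenitors undifferentiated, lay between 1.23 and 2.68 with a median of 1.85. There were 2 peaks over the gene (scores 2.53 and 2.12), and 3 more within 20 kb. The gene apt had 2 peaks (2.31 and 2.81) and a gene mean of 1.38, and zfh2, on chromosome 4, had 5 peaks (1.57 to 2.66) and a mean of 1.16. One peak each lay over CG30403 (score 2.55, gene mean 1.16, in DNA shared with HmgD), jumu (2.10, gene mean 1.0), cyc (2.37, gene mean 0.82, shared with Cyp305a1) and Sox100B (2.07, gene mean 0.65). Another peak of score 2.45 ended 820 bp from Sox100B.

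No peak lay over the other 3. In sc, a proneural gene needed for EE fate, every fragment was above Dam, between 0.47 and 1.40, and the gene mean was 0.89. CG11247 had a mean of 0.88. In z, which encodes Zeste, the mean was −0.11 and fragments ran between −0.48 and 0.33. Neither sc nor CG11247 had a peak within 20 kb. Of the 100 placed transcription factor genes in the study's wider ISC/EB-specific list, 47 had a peak, against 26.2% for their sizes, with a median gene mean of 0.59.

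The fragments at Sox21a and Thor lie wholly in peaks, while esg, Ilp6, egr and puc also hold fragments outside peaks, which at egr lie at one end of the gene.

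**Figure D3:**
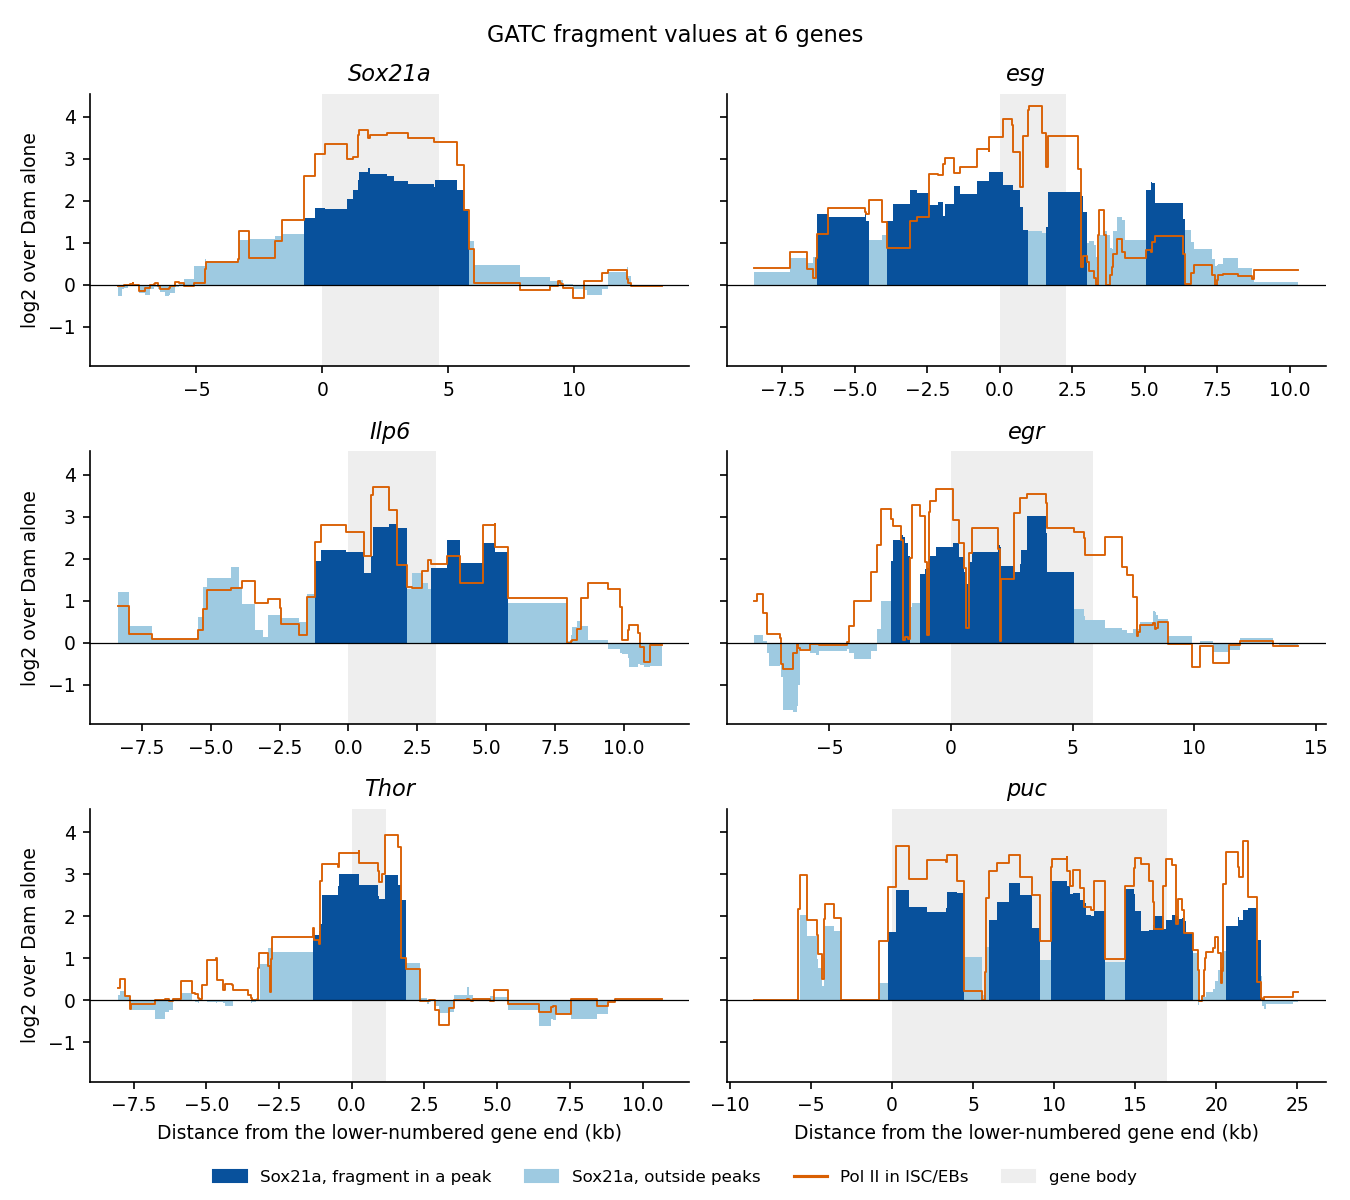
Log2 ratio over Dam alone (y axis) of each GATC fragment by distance from the lower-numbered gene end in kb (x axis) at Sox21a, esg, Ilp6, egr, Thor and puc. Dark bars are Sox21a values in peaks, light bars those outside, the orange line is Pol II in ISC/EBs and grey marks the gene body. Inside Sox21a all 13 fragments lie in the peak at 1.81 to 2.78, and puc holds 4 separate peaks.

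The 7 ligand genes that the study named as bound by Sox21a all had a peak over the gene body, against 32.7% of all genes of the same sizes. The study chose them for ISC/EB-specific Pol II in this series and for binding by both Sox21a, in these samples, and capicua. Their count is therefore not independent evidence. The peak scores, extents and gene means below come from the same track as the choice. They describe how the signal lay within each gene, and here the 7 genes differed. In Ilp6, an insulin-like peptide gene, all 11 fragments were above 1.26, up to 2.83, and the gene mean was 2.14. Its 2 peaks (2.77 and 2.38) also overlap Raf, so the values cannot be given to Ilp6 alone. In egr, which encodes the TNF ligand Eiger, 1 peak (score 2.78) covered 86.6% of the gene, fragments ran between 0.54 and 3.02, and the gene mean was 1.91.

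The EGFR ligand gene spi had 1 peak (score 2.90) over 46.0% of the gene, with fragments between 0.21 and 3.14 and a gene mean of 1.32. The peak lies over mir-2a-1, mir-2a-2 and mir-2b-2 too. Pvf2, which encodes a ligand of the PDGF/VEGF-like receptor Pvr, had 2 peaks (2.41 and 2.33) and a mean of 1.26. In these 4 genes the peaks took up much of the gene body. In the other 3 the peaks were small parts of the gene. Delta, the Notch ligand gene, had 1 peak (2.01) over 17.1% of its body and a mean of 0.79, and a pair of higher peaks lay outside it at 6469 and 14645 bp (2.47 and 2.51). In upd3, a JAK/STAT cytokine gene, the peak (2.28) covered 2.68% of the gene at one end, and the mean was 0.70. In ths, an FGF ligand gene of 151 fragments, 3 peaks (1.65, 2.53 and 2.49) gave a mean of 0.62, and some fragments were as low as −0.61.

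Across 40 gene lists, 31 had a larger share of genes with a peak than all genes of the same sizes. The lists were chosen with earlier results of these data known, and some share members. The study's ligand and ISC/EB factor lists were drawn from this series. The count of 31 is therefore not independent evidence. It also rests on peaks over the gene body. By peaks within 500 bp of an end, some lists lay nearer the share for their sizes. These included PVR and FGF (30%, against 24.7%), Notch (26.3%, against 21.4%), JAK/STAT (27.3%, against 23.1%) and Sox genes (25%, against 22.2%). Others stayed well above it, such as EGFR and Ras (44%, against 23.3%) and TNF and JNK (50%, against 22.3%). In the receptor tyrosine kinase and Ras pathway that spi feeds, 15 of 25 genes had a peak (60%, against 34.1% for their sizes), and the median gene mean was 0.87. Among the ligands, vn had a peak (2.57), and Krn and grk had none. The receptor gene Egfr had 2 peaks and a mean of 0.98. Of the intracellular relay, drk and Raf (4 peaks) had peaks. The 2 peaks over Ilp6 are among those of Raf, so the same DNA counts in more than 1 list. Ras85D had a gene mean of 1.70, the highest of the list, without a peak, and the MAP kinase gene rl had a mean of 0.01. The exchange factor gene Sos (−0.39) and the scaffold gene ksr (−0.32) were lowest. Of the nuclear effectors, pnt had 6 peaks, aop 4 and cic 2, and of the feedback genes sty had 5, aos 3, Cbl 1, Mkp3 1 and kek1 none (mean −0.04). Among these pnt (230 fragments), cic (105), aop (99) and sty (75) are long genes, of a class in which 45.3% of all genes had a peak.

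In the TNF and JNK pathway, 8 of 14 genes had a peak (57.1%, against 30.7%), with a median gene mean of 0.70. The JNK phosphatase and target gene puc was highest, at 2.01, with 4 peaks of 2.55 to 2.72, and 37 of its 45 fragments lay in peaks. The kinase genes msn (3 peaks), hep and bsk and the Fos gene kay (5 peaks) were bound, and Jra, the Jun gene, had a mean of 0.83 without a peak. Of the TNF receptors, grnd had a peak (1.84) and wgn had none, with a mean of −0.02.

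In the JAK/STAT pathway, 5 of 11 genes had a peak (45.5%, against 28.4%). The transcription factor gene Stat92E stood out, with 4 peaks, the highest at 3.03, and a gene mean of 1.92. The feedback inhibitor gene Socs36E followed at 1.43, and the receptor gene dome had 1 peak. The kinase gene hop (−0.14) and the ligand genes upd1 (−0.13) and upd2 (−0.19) had none, and et was lowest at −0.33.

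In the insulin and TOR pathway, 11 of 23 genes had a peak (47.8%, against 24.9%), with a median gene mean of 0.26. Thor was highest. Its 8 fragments ran between 2.40 and 3.03, and 1 peak covered the whole gene. Pi3K21B, a PI3-kinase adaptor gene, had a mean of 1.78, and foxo (1.18) and InR (1.0) had 3 and 4 peaks. Of the insulin-like peptide genes, Ilp6 and Ilp8 (0.42) had a peak, while Ilp1 (−0.35), Ilp2, Ilp3, Ilp4 (−0.34), Ilp5 and Ilp7 had none and means under 0. The growth regulator genes mTor (−0.29), gig (−0.30), Tsc1 (−0.24) and raptor (−0.23) also had no peak.

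In the Notch pathway, 9 of 19 genes had a peak (47.4%, against 30.9%), and the median gene mean was 0.60. The highest were aph-1 (1.84), which encodes a subunit of the protease that cleaves Notch, and neur (1.39), a ubiquitin ligase gene that activates ligands. The receptor gene N had 5 peaks and a mean of 0.99, and mam, a co-activator gene, had 3. The DNA-binding factor gene Su(H) (0.10), its partner H (0.02) and the ligand gene Ser (−0.08) had none. In the E(spl) complex of Notch target genes, 6 of 12 had a peak, against 12% for their sizes. E(spl)malpha-BFM (1.85) and Kaz-m1 (1.76) were highest and E(spl)m7-HLH (0.06) was lowest. These genes are short and share their peaks with neighboring DNA: none of the 12 held at least 50% of a peak, a condition met by 1658 of all genes.

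In the PVR and FGF pathways, 7 of 10 genes had a peak (37.7% for their sizes), with Pvf1 (1.51) and pyr (1.29) highest. The receptor gene Pvr had a mean of 0.52 and no peak. The BMP and activin list had 11 of 20 (29.0% for their sizes). Its Smad genes Dad (1.39) and Mad (1.26) had 3 peaks each, while the ligand genes dpp (0.04) and scw (−0.12) had none. In the Hippo list, 10 of 18 had a peak (32.2% for their sizes), with kibra (1.55) and dco (1.06) highest. The Hedgehog list had 8 of 13 (31.3% for their sizes), with dlp (1.10, 6 peaks), boi (1.06) and the ligand gene hh (1.0). Wnt genes stood lower, with 7 of 25 (28%), under the 34.1% for their sizes. There sgg, the GSK3 gene, had 5 peaks and fz2 had 4, and the ligand genes wg, Wnt2, Wnt4, Wnt6, Wnt10 and wntD had none.

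Ecdysone-response genes had a peak in 10 of 16 cases (62.5%, against 40.9% for their sizes). Their median was 103.5 fragments, so many are matched only to the open top class. The receptor gene EcR had 7 peaks and a mean of 1.18, and Kr-h1 had the highest mean, 1.34. Hr38 (0.01) and Hr78 (0.09) were lowest. Of 10 circadian clock genes, 9 had a peak (90.0%, against 31.7%). The highest were vri (1.76), which encodes a bZIP repressor, and cry (1.67), the blue-light receptor gene, and Pdp1 had 6 peaks. The exception was per, at −0.21. Several genes of this list, such as sgg, dco and Pdp1, have other roles as well.

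Midgut identity factor genes had a peak in 10 of 16 cases (62.5%, against 35.0%). Hnf4, a nuclear receptor gene of lipid metabolism, was highest at 1.85 with 2 peaks, followed by the GATA factor genes GATAd (1.72) and GATAe (1.42), cad (1.34) and fkh (1.13). The lowest were vvl (−0.24) and pnr (−0.12). Among 8 Sox genes, 4 had a peak (50%, against 28.6% for their sizes): Sox21a, Sox14 (1.30), Sox100B and Sox102F (0.45). D, Sox21b, SoxN and Sox15 had means of −0.09 to 0.11. Of the 3 Snail genes (17.8% for their sizes), esg had 2 peaks, while sna (−0.08) and wor (−0.13) had none.

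Of 16 ISC/EB marker genes, 11 had a peak (68.8%, against 29.7% for their sizes) and the median gene mean was 0.94. After esg the highest was lin-28 (1.72), an RNA-binding protein gene, and the integrin gene mew had 7 peaks. The lowest were upd1 (−0.13) and gig (−0.30). Of 12 proneural and EE fate genes, 3 had a peak (25%, near the 21.4% for their sizes): emc (2.09), ttk (1.18) and da (0.63). The EE factor gene pros, with 210 fragments, had none and a mean of 0.05, and ac was lowest at −0.50.

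Most lists that mark other cells of the gut had a smaller share with a peak than genes of their sizes. None of 13 EE peptide genes had one, against 18.1% for their sizes, and their median gene mean was 0.06. Of these, CCAP alone had a mean above 1 (1.22). One of 27 trypsin and Jonah protease genes, which ECs use for digestion, had a peak (Jon65Aiv, 1.83), against 12.9% for their sizes, and the median was −0.05. Other digestive enzyme genes were the exception, with 5 of 27 (18.5%, against 17.3% for their sizes), all of them maltase genes of the Mal-A cluster (Mal-A8 was highest, at 1.26) that lie side by side, so these peaks are partly shared. Visceral muscle genes had 3 of 14 (36.0% for their sizes), with Tm1 highest at 0.92, and hemocyte genes had 2 of 10 (20%, against 29.5%), with crq at 1.72. Of the hemocyte genes, Hml (−0.22), NimC1 (−0.18) and PPO1 (−0.23) had no peak.

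**Figure D4:**
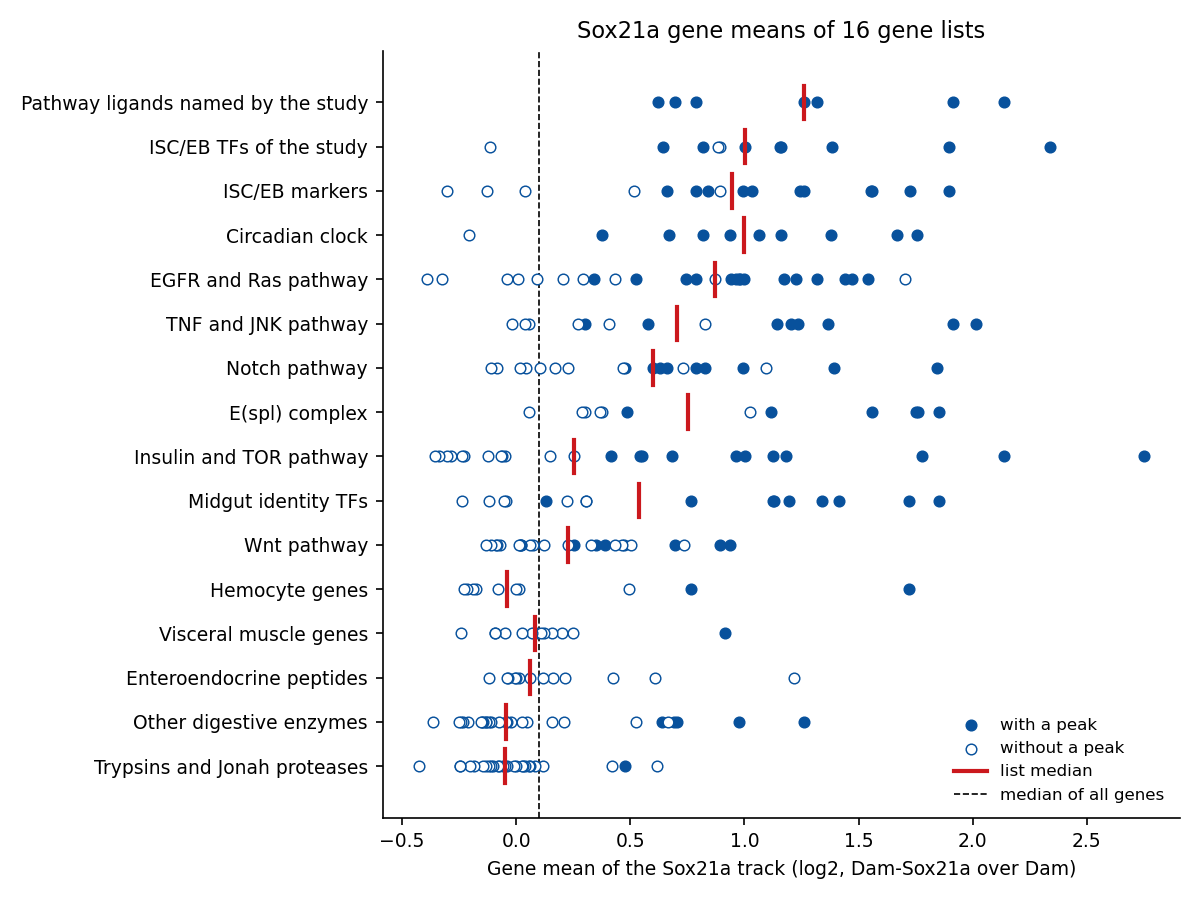
Gene mean of the Sox21a track on the log2 scale (x axis) for the members of 16 gene lists (y axis). Filled points are genes with a peak, open points genes without, red bars the list medians and the dashed line the median of all genes, 0.10. The ligand, ISC/EB factor, ISC/EB marker and clock lists have medians of 0.94 to 1.26, and both digestive enzyme lists have medians just under 0.

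Genes used by dividing cells were bound unevenly. Of 35 cell cycle and replication genes, 13 had a peak (37.1%, against 23%). The kinase genes Cdk4 (1.76) and Cdk1 (1.56) were highest and CycE had 1 peak (2.42). The replication helicase genes were low: Mcm3 (−0.31), Mcm5 (−0.21) and Mcm7 (−0.10) had no peak, while Mcm2 had one at a gene mean of 0.07. Integrin, laminin and adhesion genes had a peak in 11 of 17 cases (64.7%, against 35.6%), among them stck (1.65), mew (1.24), scb (1.24) and shg (1.13), and Slit, Robo and guidance genes in 3 of 14 (38.8% for their sizes), robo2 among them. Chromatin regulator genes had 15 of 26 (57.7%, against 30.8%), with Trl, the GAGA factor gene, highest at 1.25 and ash1 lowest at −0.41.

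Of 31 innate immunity genes, 10 had a peak (32.3%, against 17.9% for their sizes). PGRP-LC (1.90), Myd88 (1.80) and cact (1.55), the IκB gene, were highest, and imd, pirk, Rel, Dif and dl were bound as well. None of the antimicrobial peptide genes on the list had a peak. These genes are small, of classes in which 8.65% (1 to 4 fragments) and 11.9% (5 to 9) of all genes had one. AttA (−0.33) was the lowest of these, and Drs (0.88), covered by 2 fragments, was the highest. The caspase gene Dredd was the lowest of the whole list, at −0.49.

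Housekeeping genes tell the gene mean and the peak call apart. Of 92 cytosolic ribosomal protein genes, 13 had a peak (14.1%, against 11.9% for their sizes), yet their median gene mean was 0.82 and 35 had a mean of at least 1. Most of these genes hold few fragments. Proteasome subunit genes had 3 of 48 (14.3% for their sizes) and a median of 0.17. That low share depended on the overlap rule. Within 500 bp of an end, 9 proteasome genes had a peak (18.8%, against 16.3% for their sizes). Mitochondrial ribosomal protein genes had 9 of 73 (11% for their sizes) and a median of 0.49. Vacuolar proton pump genes had 8 of 17 (47.1%, against 20.8%), led by Vha16-1 (1.46) and Vha14-1 (1.44). At the other end, 3 of 185 chemoreceptor genes had a peak (1.62%, against 15.1%), and 137 had a gene mean under 0. The median of these receptors of smell and taste was −0.10.

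**Figure D5:**
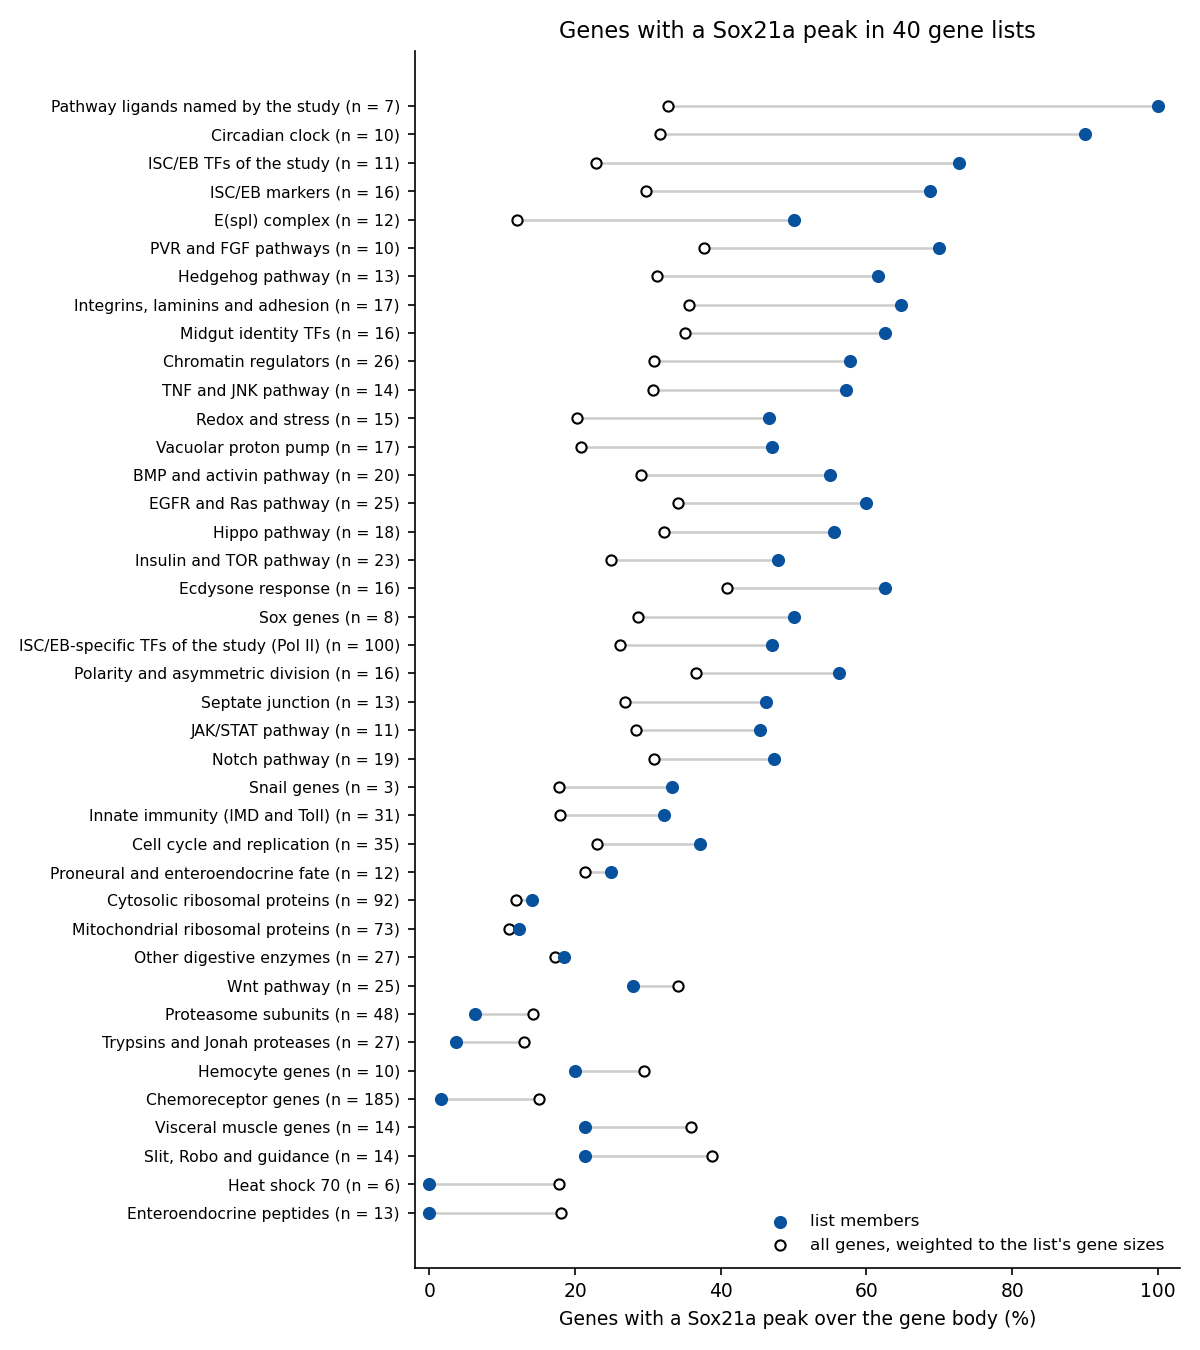
Percent of genes with a Sox21a peak over the gene body (x axis) for 40 gene lists (y axis), in order of the difference. Filled points are the list members and open points all genes weighted to the same gene sizes. The lists were chosen with earlier results of these data known. The filled point lies to the right in 31 lists, and furthest left of its open point for the EE peptide genes, at 0% against 18.1%.

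Sox21a and Pol II values moved together over genes. Genes with a Sox21a peak had a median Pol II gene mean of 1.5 in ISC/EBs, against 0.10 for genes without one, and in ECs of 0.80 against −0.01. Over 12425 genes with at least 5 fragments, Spearman's rho between the Sox21a and Pol II gene means was 0.784 in ISC/EBs and 0.605 in ECs. These are descriptions over genes, which are not independent and share fragments, and the ISC/EB tracks share the driver. By list, the median ISC/EB Pol II gene mean was 1.89 for the ISC/EB factors, 1.65 for the markers and 1.5 for the clock genes. It was 0.03 for EE peptide and −0.008 for visceral muscle genes. Cytosolic ribosomal protein genes had 2.30, with a peak in 14.1%, against 11.9% for their sizes. How far the share of a list goes with its Pol II was not tested.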

How the data were processed

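The authors digested midgut DNA at methylated GATC sites, amplified and sequenced it, and deposited log2 ratios of Dam fusion over Dam alone per GATC fragment, averaged over samples, and Sox21a peaks (FDR below 0.01) with a log2 score. Aligner, normalization, peak caller and genome build were not given in the sources used here. Depth per sample is unknown, so no interval between samples is given. Gene positions came from RefSeq Release 6, without strand. The listed genes amon and chn were not matched to a single position and were not analysed here. Gene sequences were not used here, so promoter windows and motifs were replaced by windows of 500 bp around either gene end, a choice made after seeing the data.

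A gene had a peak where at least 1 bp overlapped. The share for the same sizes weights all genes by 5 classes of fragment number. Members and lists were chosen with earlier results of these data known. Named genes were the study's ISC/EB factors and ligands, the 10 highest genes (5 or more fragments) and peaks, the 5 genes with most peaks, the 2 highest and lowest of each list, and other members of a described list. The 5 lowest genes and the longest peaks were added after seeing values. Gene means and peak counts, tested on simulated data, equalled a direct computation in all of 200 genes. Python 3.11.15, numpy 2.4.6 and pandas 2.3.3 were used.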

Additional observations from a re-analysis of the deposited data

How the results depend on the processing

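No test was run, so there was no call to change. The gene means of the ISC/EB factors, the ligands and the 10 highest genes kept their sign under the alternatives tried. The number of genes with a peak was 3093. It was 1658 when at least 50% of the peak had to lie inside the gene and 1706 with only the upper 50% of peak scores, and 1490 genes then had a peak at an end, against 2974. The share of sequence in peaks was 6.60% as a share of fragments on the 6 arms, against 6.09% by length. The median gene mean was 0.10. It was 0.088 unweighted, 0.018 as a median of fragments, 0.068 over fragments wholly inside the gene, 0.118 over genes of 5 or more fragments and 0.116 without fragments listed at 0. Genes with 1 kb flanks (3814), peaks with a score of at least 1 (3093) and coding genes alone (2656) gave counts within 1.5 times. The end windows of 1 kb (3404), upper scores there and zeros left out were chosen after seeing the data. The number of members with a peak moved by over 1.5 times in 13 of 40 lists with 50% of the peak inside, in 3 with flanks and in 15 with upper scores. With 50% of the peak inside, the count was 5 of 11 for the ISC/EB factors, 6 of 7 for the ligands, 6 for insulin and TOR, 6 for cell cycle and 6 for immunity genes, and 0 for E(spl). The number of lists above the share for their sizes was 31 of 40, and 28 to 31 under the alternatives, so some lists changed sides. E(spl) did so with 50% of the peak inside. No paired analysis was possible because the deposited tracks are averages over samples. Leaving out single samples, promoter windows and motifs were not run for the same lack of values per sample, strand and sequence.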
